A study of Mus musculus with 3 samples.

Results

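The Tripartite motif (Trim) genes were taken as every gene whose symbol in the platform annotation is Trim followed by a number and an optional letter, read on probe sets listed for 1 gene. This gave 58 genes of the 18194 with such a probe set. Each gene was read on its brightest probe set. The samples were 3 Affymetrix expression arrays of cultured mouse BMDCs, dendritic cells that present antigen to T cells and here came from marrow kept 10 days in 10 ng/ml of the growth factor GM-CSF. The groups were BMDC(+LPS+cAMP), given 100 µM 8-Br-cAMP and 10 ng/ml lipopolysaccharide (LPS), both over 3 h, BMDC(+LPS), given LPS alone for 3 h, and BMDC(-), left unstimulated. Tlr4 is the receptor for LPS, a component of Gram-negative bacteria, and 8-Br-cAMP enters cells and stands in for the second messenger cyclic AMP. The labels give no strain, genotype, sex or age for any group, and no time for the unstimulated cells. With 1 array per condition, differences have no replicate check and no p-value.

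Most Trim proteins have a RING finger, which gives ubiquitin ligase activity, followed by B-box and coiled-coil domains, and they differ mainly in the domain at their C-terminal end. Many carry a SPRY domain there and act against viruses or tune the signalling that leads to interferon and inflammatory cytokines. Others are chromatin corepressors, microtubule-bound proteins or muscle and nerve cell proteins. In dendritic cells and macrophages a subset is known to be induced by type I interferon, which LPS elicits through Tlr4.

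The deposited signals were scaled to a common trimmed mean, and signals under a floor of 32.5 were raised to it. The floor is the largest scaled median among the 3 arrays. Genes over that floor on 1 or both arrays of a comparison are called measured in it. The array of LPS with 8-Br-cAMP was the dimmest before scaling and was multiplied by 1.63, against 0.929 for LPS and 0.763 for unstimulated cells. All 12 listed dendritic cell markers and all 7 macrophage markers were above the floor on every array. So were all 10 granulocyte markers, and all 6 B and plasma cell markers on the LPS and unstimulated arrays. Being above the floor therefore does not tell these cell types apart. The cultures were not alike in other transcripts. The scaled signal of Xist, a transcript of female cells, was 1716 with LPS and 8-Br-cAMP, against 8.08 with LPS and 32.3 unstimulated. The Y-linked gene Eif2s3y was at 1.24 with LPS and 8-Br-cAMP, against 272 with LPS and 352 unstimulated. By these transcripts the LPS+8-Br-cAMP culture read as female, and the LPS and unstimulated cultures as male. The summed scaled signal of 10 granulocyte markers was 19928 with LPS and 8-Br-cAMP, against 40928.5 with LPS and 37035 unstimulated. For 6 B and plasma cell markers the sum was 211 with LPS and 8-Br-cAMP, against 3037 with LPS and 4958 unstimulated, with Cd79a, Ms4a1 and Jchain under the floor on the LPS+8-Br-cAMP array. The part of these differences in the Trim results was not tested. In bulk RNA, fewer cells of a type and less RNA per cell cannot be told apart.

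Of the 58 Trim genes, 27 were above the floor on all 3 arrays, 18 on 1 or 2 arrays and 13 on none. The 45 above the floor somewhere were 77.6% of the family, against 73.0% of all genes. The 13 others were Trim15, Trim16, Trim17, Trim31, Trim40, Trim42, Trim43a, Trim54, Trim63, Trim71, Trim72, Trim75 and Trim80. Trim54, Trim63 and Trim72, known from muscle, and Trim71, a stem cell RNA-binding protein, were among them. A further 10 symbols of the family in the RefSeq gene table were not analysed here. Of these, Trim30b and Trim34b lay only on probe sets shared with another gene, and Trim30c, Trim38, Trim43b, Trim43c, Trim50, Trim52, Trim55 and Trim58 had no listed probe set.

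Short sequences at the start sites of 6 Trim genes that were at least 2-fold higher with LPS are shown first, because they share the letters of the interferon-stimulated response element, the site bound by the interferon-activated complex ISGF3 and by interferon regulatory factors. The motif searched was GAAA, any 2 bases, then GAAA, on either strand, in windows from 250 bases before to 50 after each annotated start (RefSeq, GRCm38.p6). Each line gives 30 bases on the strand of the gene, 5′ to 3′, and capitals mark the matches.
Trim30d, chr7:104507871-104507900, minus strand: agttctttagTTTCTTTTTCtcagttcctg
Trim30a, chr7:104465210-104465239, minus strand: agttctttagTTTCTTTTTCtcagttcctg
Trim21, chr7:102565447-102565476, minus strand: ctgagagGAAACTGAAAGTGAAAtttggac
Trim34a, chr7:104244457-104244486, plus strand: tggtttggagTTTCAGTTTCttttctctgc
Trim26, chr17:36836979-36837008, plus strand: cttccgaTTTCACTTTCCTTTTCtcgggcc
Trim12c, chr7:104353359-104353388, minus strand: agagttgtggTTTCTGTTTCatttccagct

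Relative to the start, the match begins at position -41 in Trim30d, -36 in Trim30a, -29 in Trim12c and -160 in Trim26. In Trim34a and Trim21 it begins at base 11 and base 14 of the transcript. Trim21 and Trim26 each hold 2 matches that overlap. The Trim30a and Trim30d lines are the same 30 bases, and the 250 bases upstream of these neighbouring copies were 89.0% identical in a global alignment.

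Of the 9 Trim genes at least 2-fold higher with LPS, 8 had a promoter window in the table, and 6 of these 8 held the motif (75%). Trim13 and Trim25 did not, and Trim36 had no window. Of the 28 other Trim genes above the floor that had a window, 3 held it (10.7%): Trim12a, Trim2 and Trim5. Trim12a and Trim5 lie in the same stretch of chromosome 7 as Trim30d, Trim30a, Trim34a and Trim12c. The motif thus went with this stretch as well as with the LPS difference, and neighbouring copies count as separate genes here. Trim5 holds the motif but was not higher with LPS (-0.51). Over all 27025 genes with a window the share was 3.99%, and among all 651 genes with a window that were at least 2-fold higher with LPS it was 9.06%. The gamma-activated sequence, TTCNNNGAA, was in 0 of the same 8 windows, against 9.55% of all genes, and the kappaB consensus, the site of NF-kB, also in 0, against 5.14%. The cAMP response element TGACGTCA was in 1 of the 8, Trim26, against 2.03% of all genes. A match is a run of letters only, and no match says nothing about a factor outside this window.

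The upstream 250 bases are given for the 4 genes whose match lies before the start, because the paralogous pair and the gene that also holds a cAMP response element can be compared on them. Capitals mark the interferon-stimulated response element on either strand, and the lower-case tgacgtca in Trim26 is the cAMP response element.
Trim30d, chr7:104507850-104508099, minus strand: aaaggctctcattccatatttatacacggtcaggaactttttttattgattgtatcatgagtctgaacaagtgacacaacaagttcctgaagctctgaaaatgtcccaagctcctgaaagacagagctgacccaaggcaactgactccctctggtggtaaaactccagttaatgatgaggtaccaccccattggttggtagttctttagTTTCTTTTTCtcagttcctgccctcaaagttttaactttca
Trim30a, chr7:104465194-104465443, minus strand: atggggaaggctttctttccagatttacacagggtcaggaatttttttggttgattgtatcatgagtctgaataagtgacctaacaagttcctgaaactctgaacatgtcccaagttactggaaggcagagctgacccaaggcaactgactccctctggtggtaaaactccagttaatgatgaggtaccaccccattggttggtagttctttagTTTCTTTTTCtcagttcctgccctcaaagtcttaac
Trim26, chr17:36836896-36837145, plus strand: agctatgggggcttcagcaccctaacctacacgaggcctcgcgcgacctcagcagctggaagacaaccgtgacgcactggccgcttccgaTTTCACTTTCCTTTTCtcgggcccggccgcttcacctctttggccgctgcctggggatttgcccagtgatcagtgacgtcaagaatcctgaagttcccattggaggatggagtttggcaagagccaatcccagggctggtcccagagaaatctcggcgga
Trim12c, chr7:104353350-104353599, minus strand: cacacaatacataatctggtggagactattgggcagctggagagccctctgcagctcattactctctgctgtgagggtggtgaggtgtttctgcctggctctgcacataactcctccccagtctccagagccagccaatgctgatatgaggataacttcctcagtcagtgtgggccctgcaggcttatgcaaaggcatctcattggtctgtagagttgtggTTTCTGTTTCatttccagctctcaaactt

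The comparison of LPS with unstimulated cells sets 1 culture against 1 other. The 6 B and plasma cell markers summed to 3037 with LPS and 4958 unstimulated, and the unstimulated cells have no labelled time. LPS and culture therefore cannot be told apart in it. Trim30d, Trim30a, Trim36, Trim21, Trim34a, Trim26, Trim13, Trim12c and Trim25 were at least 2-fold higher with LPS, and Trim45 and Trim29 at least 2-fold lower. Of 42 measured Trim genes, LPS had 9 at least 2-fold higher (21.4%), against 6.63% of all 12285 measured genes. Another 2 were at least 2-fold lower (4.76%), against 13% of all measured genes. That count of 2 was not steady and ran from 0 to 14 across the alternatives described below. The median log2 difference of the family was -0.28, close to the -0.21 of all measured genes, and 19 of the 42 lay above that overall median. The extremes were 3.41 and -1.59. The scatter between probe sets of 1 gene gave an error of 0.49 for a single log2 difference in this comparison. That is the only error these arrays allow, and it is not the spread between cultures.

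**Figure D1:**
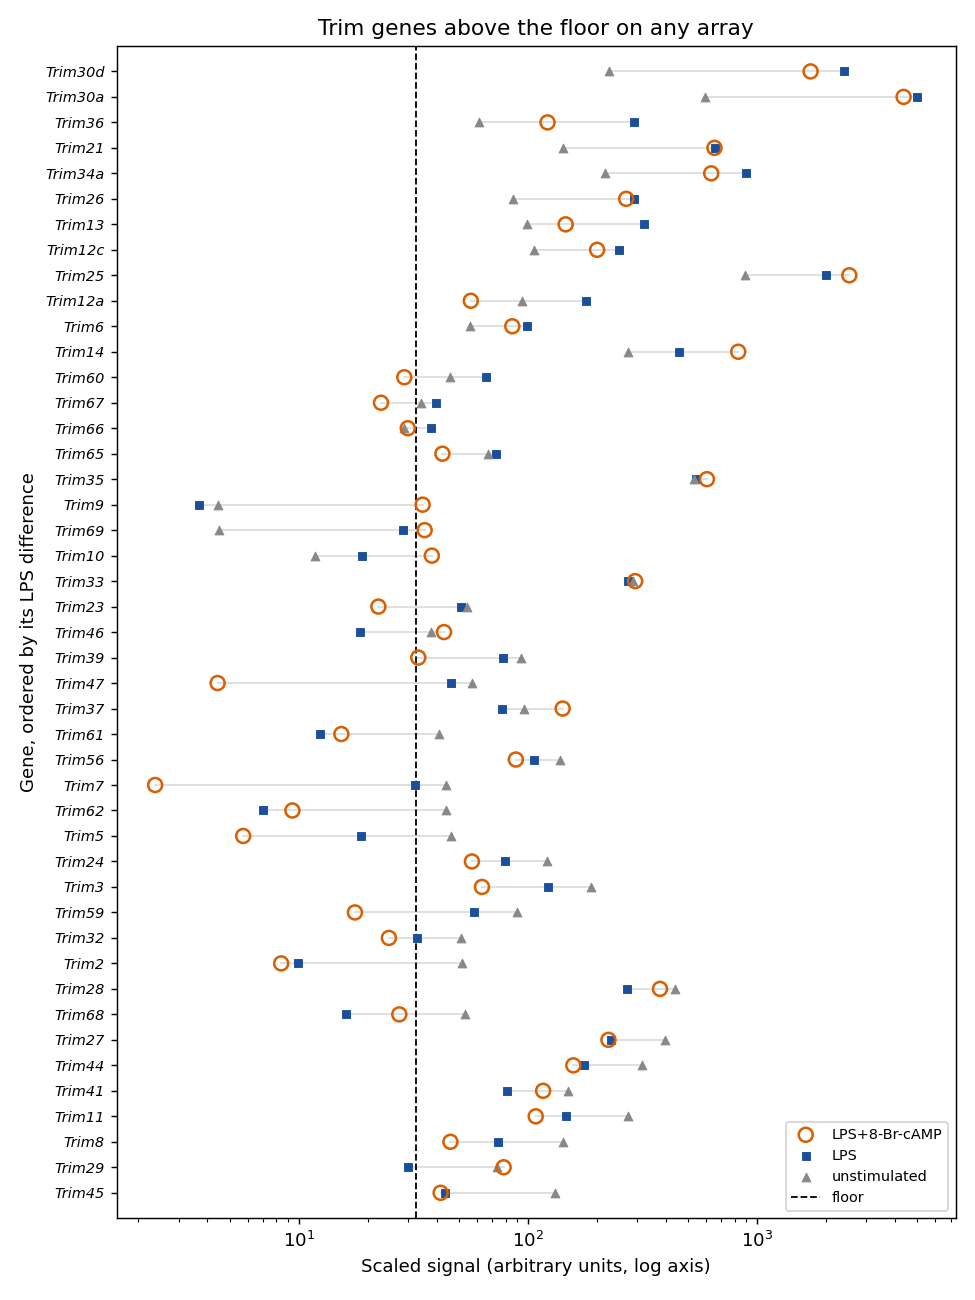
Scaled signal (log axis) of the 45 Trim genes above the floor on any array, ordered by their LPS difference, with LPS and 8-Br-cAMP as open circles, LPS as squares and unstimulated as triangles. Trim30a was at 4364 with LPS and 8-Br-cAMP, 5012 with LPS and 590.4 unstimulated. The dashed line is the floor of 32.5, and signals of different genes come from different probe sets and are not comparable.

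The largest differences were in the Trim30 genes. Trim30a is a SPRY member that in mice restrains Toll-like receptor signalling by promoting loss of Tab2 and Tab3. Its scaled signal was 4364 with LPS and 8-Br-cAMP, 5012 with LPS and 590.4 unstimulated. It was thus high on both stimulated arrays, 8.49-fold higher with LPS than unstimulated (log2 difference 3.09, and 3.10 by its second probe set). Trim30d, the adjacent copy, was at 1714 with LPS and 8-Br-cAMP, 2407 with LPS and 226 unstimulated, 10.7-fold higher with LPS (3.41, and 3.78 by its second probe set). Because the 2 genes are close copies, and 1 probe set annotated to both was left out, the share of signal each contributes to the other's probe sets is uncertain.

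Further SPRY genes of the same stretch of chromosome 7 were also higher with LPS. Trim34a, a relative of the restriction factor TRIM5alpha of primates, was at 631 with LPS and 8-Br-cAMP, 899 with LPS and 217 unstimulated, 4.14-fold higher with LPS (2.05). Its second probe set, which lay near the floor on every array, gave 0.024. Trim12c, a mouse counterpart of TRIM5, was at 201 with LPS and 8-Br-cAMP, 249 with LPS and 107 unstimulated (1.22, and 1.33 by its second probe set). Trim12a, the nearest copy of Trim12c, was at 56.4 with LPS and 8-Br-cAMP, 180.2 with LPS and 94.6 unstimulated, just under 2-fold higher with LPS (0.93). Trim6, a ligase that makes unanchored ubiquitin chains in interferon signalling, was at 85.6 with LPS and 8-Br-cAMP, 99.2 with LPS and 56.0 unstimulated (0.82). Trim5 itself was above the floor only on the unstimulated array, at 46.3.

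In the RefSeq gene order this stretch runs from Trim6 to Trim30d and holds 11 protein-coding genes, 10 of them Trim genes and 7 of those measured here. Of the 7, 4 were at least 2-fold higher with LPS and 0 lower, with a median of 1.22. Of the 35 other measured Trim genes, 5 were at least 2-fold higher and 2 lower, with a median of -0.34. Over all measured genes 6.63% were higher and 13% lower. Trim21 also lies on chromosome 7, outside the stretch. On chromosome 17, Trim26 is the first of 5 consecutive Trim genes. Its neighbours Trim15, Trim40 and Trim31 were under the floor on all arrays, and Trim10, an erythroid gene, was above it only with LPS and 8-Br-cAMP, at 38.1.

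**Figure D2:**
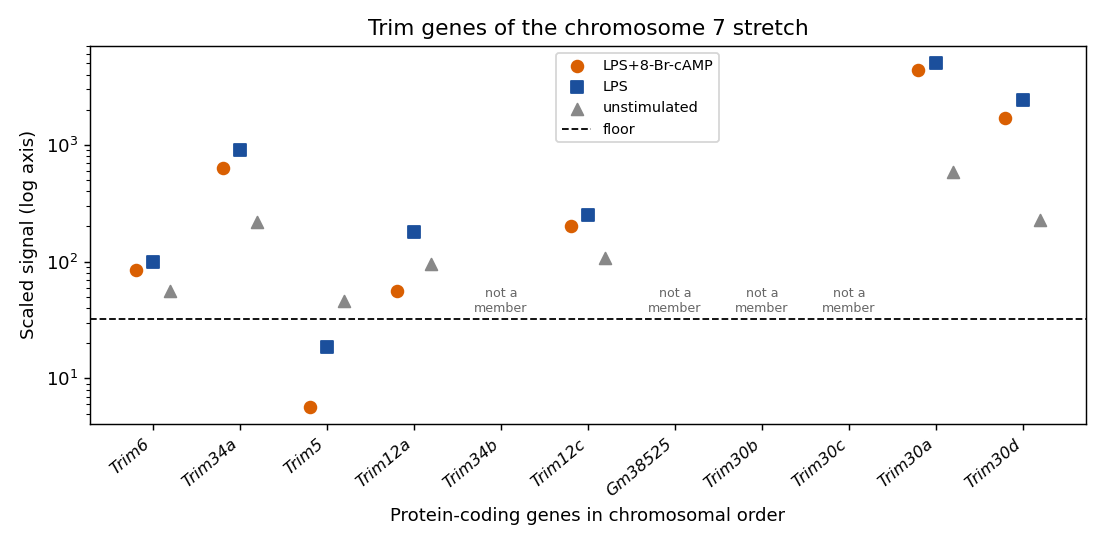
Scaled signal (log axis) of the 7 Trim genes measured in the chromosome 7 stretch, with the 11 protein-coding genes in chromosomal order and not to distance. Circles are LPS and 8-Br-cAMP, squares LPS and triangles unstimulated, and the dashed line is the floor. The LPS array is the highest of the 3 in 6 of the 7 genes, Trim5 being the exception.

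The other 5 genes at least 2-fold higher with LPS had varied roles. Trim21, a cytosolic antibody receptor that sends antibody-coated virus to the proteasome, was at 652 with LPS and 8-Br-cAMP, 655 with LPS and 142 unstimulated. It was 4.62-fold higher with LPS (2.21, and 1.46 by its second probe set). Trim25, the ligase that ubiquitinates the RNA sensor RIG-I, was at 2529 with LPS and 8-Br-cAMP, 1994 with LPS and 889.8 unstimulated. Its LPS difference of 1.16 was the smallest of the 9, and its other probe sets gave 1.04 and 1.88. Trim26, reported to act on Irf3, was at 269 with LPS and 8-Br-cAMP, 289 with LPS and 86.4 unstimulated, with 1.74 by its brightest probe set and 1.75 by the other. Trim13, a ligase anchored in the endoplasmic reticulum, was at 146 with LPS and 8-Br-cAMP, 320.1 with LPS and 99.3 unstimulated (1.69). It has 1 probe set, so no second reading exists. Trim36, a microtubule-associated protein described in sperm, was at 122 with LPS and 8-Br-cAMP, 291 with LPS and 61.5 unstimulated (2.24, and 1.19 by its second probe set).

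By role, 17 genes of innate sensing and interferon control were measured, and LPS had 4 at least 2-fold higher and 1 lower, with a median of -0.26. Over all measured genes 6.63% were higher and 13% lower, so a count of 0 in the small roles below says little. Of the 4 chromatin corepressors 0 were past 2-fold (median -0.33), and likewise 0 of the 2 measured genes listed under NHL repeats (-0.64). Trim32, an NHL ligase counted here under innate sensing, was also under 2-fold (-0.63). Of 3 measured microtubule-binding COS box genes, Trim36 was higher, and of 8 measured genes of other roles, Trim45 was lower.

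The 2 lower genes were dim. Trim45, a ligase with a filamin-type domain, was at 41.7 with LPS and 8-Br-cAMP, 43.6 with LPS and 131 unstimulated, 3.01-fold lower with LPS (-1.59). Trim29, which lacks a RING finger and is known to promote loss of the DNA-sensing adaptor STING, was at 78.4 with LPS and 8-Br-cAMP, 30.1 with LPS and 73.6 unstimulated. Since its LPS signal was under the floor, it was at least 2.26-fold lower with LPS. Both genes have a single probe set. Trim8 (-0.94), which acts on the cytokine inhibitor Socs1, Trim11 (-0.90), Trim41 (-0.89) and Trim44 (-0.84) lay just inside the threshold.

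Alternatives moved these counts unevenly. The share of all measured genes past 2-fold is not given under the alternatives, so those counts do not set the family against other genes. When only probe sets ending in a plain _at were used, 5 of 31 measured Trim genes were at least 2-fold higher. Trim25, Trim26 and Trim30a have no such probe set, so they were not measured there. The count of lower genes was 7 of 41 measured with the signals as deposited and 8 of 41 with spike scaling. Trim25 (0.88 and 0.83) and Trim12c (0.94 and 0.89) were under 2-fold in the unscaled and the spike-scaled signals, and Trim25 also after quantile normalization (0.91).

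**Figure D3:**
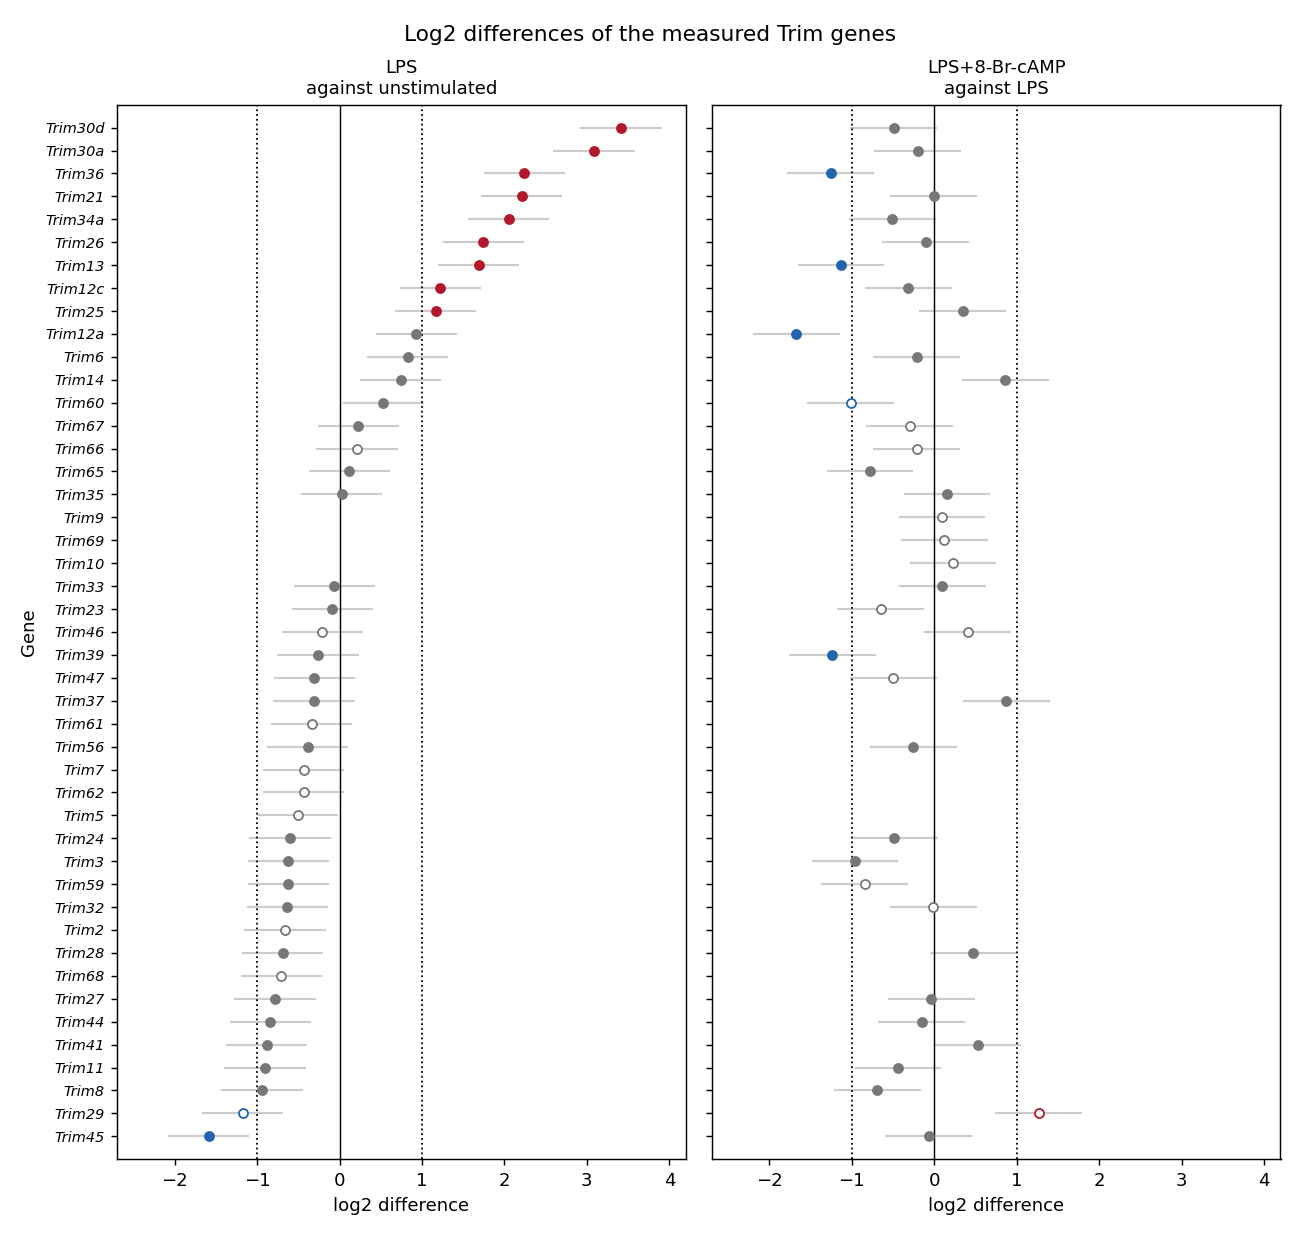
Log2 differences of the Trim genes measured in either comparison, LPS against unstimulated on the left and LPS+8-Br-cAMP against LPS on the right. Bars are the error of 1 probe set, 0.49 on the left and 0.53 on the right, open points are lower bounds against an array under the floor, and dotted lines mark 2-fold. Trim30d leads the left panel at 3.41, and Trim12a is the lowest on the right at -1.68.

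Setting LPS+8-Br-cAMP against LPS asks what differs when the analogue is added, and it uses the same LPS array as the comparison above. The 8-Br-cAMP culture was also the one that stood apart in Xist, Eif2s3y and the granulocyte and B cell markers, so the agent and the culture cannot be told apart. Trim12a, Trim36, Trim39, Trim13 and Trim60 were at least 2-fold lower with 8-Br-cAMP, and Trim36 and Trim13 were also among the 9 genes higher with LPS than unstimulated. Of 39 measured Trim genes 5 were at least 2-fold lower (12.8%), against 5.81% of all 12573 measured genes. The 1 gene at least 2-fold higher was Trim29 (2.56%), against 6.49% of all measured genes. That count ran from 0 to 6 across the alternatives. The family median was -0.21, against 0.049 for all measured genes, and 27 of the 39 lay below that overall median. The error of 1 probe set was 0.53.

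Trim12a had the lowest value. Its signal of 56.4 with LPS and 8-Br-cAMP, against 180.2 with LPS, was 3.20-fold lower (-1.68), and it also lay under the unstimulated 94.6. Its other probe set was under the floor on every array, so this rests on 1 probe set. Trim12c, its nearest copy, differed by -0.31 on its brightest probe set, at 201 with LPS and 8-Br-cAMP against 249 with LPS. The second Trim12c probe set read 41.3 against 107, a difference of -1.37, so the probe sets of Trim12c did not give the same size.

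Trim36 was lower with 8-Br-cAMP by both of its probe sets. The brighter one read 122 with LPS and 8-Br-cAMP against 291 with LPS (-1.25), and the other 72.8 against 199 (-1.45). It was the only one of the 5 that another probe set also measured. Trim13 was at 146 with LPS and 8-Br-cAMP against 320.1 with LPS, 2.19-fold lower (-1.13). Trim39, a regulator of the cell cycle ligase APC/C, was at 33.3 with LPS and 8-Br-cAMP, just above the floor, against 78.3 with LPS and 93.8 unstimulated (-1.23). Trim60, described in testis and early embryo, was under the floor with LPS and 8-Br-cAMP at 28.9, against 65.8 with LPS, at least 2.02-fold lower, and at 45.6 in unstimulated cells. Trim29 was the exception, at 78.4 with LPS and 8-Br-cAMP against 30.1 with LPS, at least 2.41-fold higher, and at 73.6 in unstimulated cells. The same low LPS reading gave both its fall with LPS and its rise here.

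The 9 genes higher with LPS ranged from -1.25 to 0.34 in this comparison, with a median of -0.31. They were picked as high on the LPS array, and that same reading is subtracted here. An LPS reading too high by error would therefore move their values down. Trim21 differed by -0.0055, Trim26 by -0.11, Trim30a by -0.20, Trim30d by -0.49 and Trim34a by -0.51. By these brightest probe sets all 5 were within the error of 1 probe set, but the second Trim30a probe set gave -0.72, beyond it. Trim25 was the highest of the 9 at 0.34, with -0.32 and 0.57 by its other probe sets. Trim14, an adaptor of the mitochondrial RNA-sensing protein MAVS, was at 828 with LPS and 8-Br-cAMP, 456 with LPS and 273 unstimulated. It was higher by 0.86 with 8-Br-cAMP than with LPS, under 2-fold. Trim37, a ligase of centrosomes and peroxisomes, was at 142 with LPS and 8-Br-cAMP, 77.5 with LPS and 96.1 unstimulated (0.87). Another Trim37 probe set went the other way, reading 25.8, under the floor, against 46.2 with LPS.

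**Figure D4:**
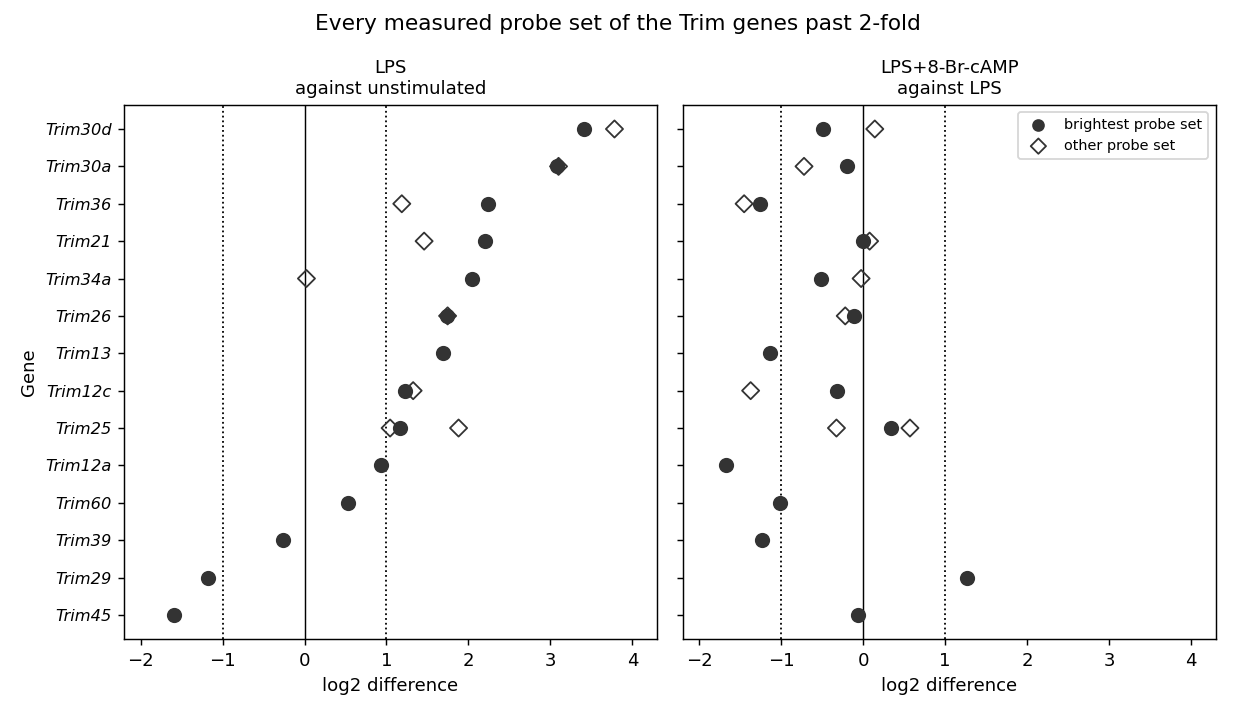
Log2 differences by every measured probe set of the 14 Trim genes past 2-fold in either comparison, LPS against unstimulated on the left and LPS+8-Br-cAMP against LPS on the right. Filled circles are the brightest probe set and open diamonds the others, and dotted lines mark 2-fold. Of the 8 genes past 2-fold on the left that had another measured probe set, all 8 went the same way by it, and Trim34a is the one near 0.

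With the signals as deposited, without scaling for the dimmer 8-Br-cAMP array, 12 of 33 measured Trim genes were at least 2-fold lower and 0 higher. The median of all measured genes was then -0.65. Their share past 2-fold in that setting is not given, so the count does not set the family apart. Spike scaling gave 2 lower, Trim12a and Trim36, and 2 higher. Trim36 was past 2-fold in each of the 9 alternatives that measured it. Trim12a was not at the higher floor (-0.72), and Trim13 was just inside 2-fold after quantile normalization and spike scaling (-0.99 each). Trim39 was under 2-fold in 3 of its 8 alternatives, with a difference of -0.93 at its smallest. Trim60 differed by -0.08 by the mean over its probe sets, and Trim29 by 0.18 with the signals as deposited.

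Against unstimulated cells, the culture given LPS and 8-Br-cAMP had 7 of 44 measured Trim genes at least 2-fold higher (15.9%), where 9.36% of all 12794 measured genes were. It also had 7 at least 2-fold lower (15.9%), where 15.8% of all were. This comparison shares an array with each of the other 2, and its error of 1 probe set was 0.62. The LPS+8-Br-cAMP culture also differed from the unstimulated one in Xist, Eif2s3y and the granulocyte and B cell markers. Treatment and culture therefore cannot be told apart here either. The higher genes were Trim30d (2.92), Trim30a (2.89), Trim21 (2.20), Trim26 (1.64), Trim14 (1.60), Trim34a (1.54) and Trim25 (1.51). The other Trim25 probe sets gave 0.72 and 2.45. The lower genes were Trim45 (-1.66), Trim8 (-1.63), Trim3 (-1.58), Trim39 (-1.50), Trim59 (at least 2.76-fold lower), Trim11 (-1.34) and Trim24 (-1.09).

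The count of lower genes was near the share over all genes. In several of them the signal was lowest with LPS and 8-Br-cAMP, intermediate with LPS and highest unstimulated. Because they were picked as lower with LPS and 8-Br-cAMP than unstimulated, only the place of the LPS array was open. Brightness before scaling had the same order, with trimmed means of 63.2 with LPS and 8-Br-cAMP, 110.8 with LPS and 134.8 unstimulated. Trim3, an NHL repeat protein studied in neurons, was at 63.1 with LPS and 8-Br-cAMP, 123 with LPS and 189 unstimulated. Trim8 was at 45.9 with LPS and 8-Br-cAMP, 74.1 with LPS and 143 unstimulated. A second Trim8 probe set was above the floor only with LPS and 8-Br-cAMP and another only unstimulated, so the probe sets disagreed. Trim11, a SPRY ligase, was at 108 with LPS and 8-Br-cAMP, 147 with LPS and 275 unstimulated. Trim59, a membrane-anchored ligase, was at 17.6 with LPS and 8-Br-cAMP, under the floor, 58.4 with LPS and 90.0 unstimulated.

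Of the chromatin corepressors, Trim24 was the 1 of 3 measured whose brightest probe set was past 2-fold when LPS+8-Br-cAMP was set against unstimulated cells. The other measured Trim24 probe set gave -0.52, and Trim24 was past 2-fold in 5 of 9 alternatives. Trim28, which silences retroelements with zinc finger proteins, was at 377 with LPS and 8-Br-cAMP, 272 with LPS and 438 unstimulated. By its other probe set Trim28 was at 108, 171 and 339 in the same order, a difference of -1.65 between LPS+8-Br-cAMP and unstimulated, against -0.21 by the brightest. Trim33, a partner of Smad4, was at 294 with LPS and 8-Br-cAMP, 274 with LPS and 287 unstimulated, and its differences on that probe set were between -0.07 and 0.10. Its other measured probe set differed by -0.99 between LPS and unstimulated, and by 0.54 between LPS+8-Br-cAMP and LPS. Trim24, a nuclear receptor cofactor, was at 57.0 with LPS and 8-Br-cAMP, 79.9 with LPS and 121 unstimulated. Trim66 was above the floor only with LPS, at 37.7. By their brightest probe sets, none of the 4 was past 2-fold with LPS against unstimulated or with LPS+8-Br-cAMP against LPS.

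Among the genes above the floor on all arrays, 10 were under 2-fold in all 3 comparisons by their brightest probe set: Trim6, Trim27, Trim28, Trim33, Trim35, Trim37, Trim41, Trim44, Trim56 and Trim65. Their LPS differences ran from -0.89 to 0.82, and LPS+8-Br-cAMP against LPS gave -0.78 to 0.87. The other Trim41 probe set was past 2-fold, at -1.19 with LPS and -2.09 with LPS+8-Br-cAMP, both relative to unstimulated cells. For LPS+8-Br-cAMP against LPS it gave -0.90, where the brightest gave 0.53. A Trim37 probe set gave -1.27 for LPS+8-Br-cAMP against unstimulated cells, where the brightest gave 0.56. Trim35, known to act on Irf7, was at 605 with LPS and 8-Br-cAMP, 543 with LPS and 533 unstimulated. Trim56, a regulator of cGAS and STING, was at 88.7 with LPS and 8-Br-cAMP, 106 with LPS and 138 unstimulated. Trim65, which ubiquitinates the RNA sensor MDA5, was at 42.4 with LPS and 8-Br-cAMP, 72.7 with LPS and 67.0 unstimulated. The probe sets of Trim27 did not share a direction: for LPS against unstimulated its measured probe sets gave -0.79 on the brightest, -1.30, -1.05, 0.24 and 0.39. One of them read 54.7 with LPS and 8-Br-cAMP against 182 with LPS, where the brightest differed by -0.04.

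The remaining Trim genes were close to the floor. Trim23, which carries an ARF domain, was at 22.3 with LPS and 8-Br-cAMP, 51.1 with LPS and 54.2 unstimulated. Trim47 was at 4.43 with LPS and 8-Br-cAMP, 46.0 with LPS and 56.8 unstimulated. Trim32, an NHL ligase, was at 24.8 with LPS and 8-Br-cAMP, 32.8 with LPS and 50.9 unstimulated. Trim67, a neuronal gene, was at 22.9 with LPS and 8-Br-cAMP, 39.9 with LPS and 34.1 unstimulated. Trim46, of the axon, was at 43.1 with LPS and 8-Br-cAMP, 18.4 with LPS and 37.7 unstimulated. Above the floor on the unstimulated array alone were Trim2, Trim7, Trim61, Trim62 and Trim68, at 41.1 to 53.1, together with Trim5. Trim9 and Trim69 were above it only with LPS and 8-Br-cAMP, at 34.8 and 35.5.

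Genes that work beside the Trim proteins were read from a list of sensors, signalling partners, interferon receptor components, the ubiquitin-like ISG15 pathway and Trim relatives under other symbols. The list was chosen with earlier results of these data known, so its counts describe the chosen genes and are not a test. For LPS against unstimulated, 36 were measured, 17 of them at least 2-fold higher and 1 lower, with a median of 0.96, where 6.63% of all measured genes were higher and 13% lower. For LPS+8-Br-cAMP against LPS, 0 of 36 were at least 2-fold higher and 2 lower, with a median of -0.11, where 6.49% of all measured genes were higher and 5.81% lower, so the count of lower genes was near the share over all genes. The lower genes were Ifnb1 and Tyk2. Ifnb1, encoding interferon beta, was at 108 with LPS and 8-Br-cAMP, 337 with LPS and 50.02 unstimulated. Tyk2, a kinase of the interferon receptor, was at 129.8 with LPS and 8-Br-cAMP, 383 with LPS and 296 unstimulated. The RNA sensor Ifih1 was at 5604 with LPS and 8-Br-cAMP, 6772 with LPS and 234 unstimulated. Ddx58, encoding RIG-I, the target of Trim25, was at 1422 with LPS and 8-Br-cAMP, 1673 with LPS and 182 unstimulated. The interferon regulatory factor Irf7 was at 1500.5 with LPS and 8-Br-cAMP, 1303 with LPS and 81.6 unstimulated. Usp18, which removes ISG15 from proteins, had the largest LPS difference of the list (5.61), and Dhx58 (3.14), a RIG-I relative, and Herc6 (3.09), an ISG15 ligase of mice, followed these. The 1 gene at least 2-fold lower with LPS was Mavs, the adaptor of the RNA sensors, at 75.6 with LPS and 8-Br-cAMP, 50.9 with LPS and 148 unstimulated.

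Of the Trim relatives under other symbols, Pml, the nuclear body organiser also called TRIM19, was at 415 with LPS and 8-Br-cAMP, 475 with LPS and 122 unstimulated (1.96 for LPS). Mefv, encoding the inflammasome protein pyrin, was at 1117 with LPS and 8-Br-cAMP, 1276 with LPS and 255 unstimulated (2.32). Rnf135, a ligase for RIG-I, differed by 0.94 with LPS. Mid1, a microtubule-bound ligase, differed by -0.15, Rnf207 by -0.32, and Mid2 was under the floor on every array. LPS+8-Br-cAMP against LPS gave -0.35 to -0.19 for Pml, Mefv, Rnf135 and Mid1, and 0.40 for Rnf207.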

How the data were processed

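Per the labels' protocols, biotinylated cRNA from total RNA was hybridised. The deposited table gives each probe set's linear signal intensity. The submitters' processing notes name MAS5, without settings. Of 45101 probe sets, 64 controls were left out. The platform annotation gave 1 gene for 34945, several for 932 and did not list 9160. All 58 Trim symbols matched the RefSeq gene table (GRCm38.p6), and 47 had promoter windows.

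Arrays were scaled on the mean trimmed by 2% at each end, floored and taken to log2 (Python 3.11.15, pandas 2.3.3). Having 3 arrays limits the precision. The error of 1 probe set is the SD, over genes with 2 or more measured probe sets, of the difference between the 2 brightest, divided by the square root of 2. With 1 array per condition there was no test, and a difference counted at 2-fold. Upstream sequences were aligned with Biopython. The steps were tested on simulated data, with large changes planted in bright genes only and noise smaller than the error of 1 probe set. Calls in dim genes were therefore not tested. Members and lists were chosen with earlier results of these data known. Every Trim gene above the floor was named, with the values on all arrays for those past 2-fold.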

Additional observations from a re-analysis of the deposited data

How the results depend on the processing

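No paired analysis was possible because each condition had 1 array. Alternatives were quantile normalization, median scaling, spike scaling, no scaling, a low floor (25th percentile) and a high one (75th), 16 added to each signal instead of flooring, each gene's mean probe set signal, plain _at probe sets only, and thresholds of 1.5-fold and 3-fold. Of 261 recomputed log2 differences of genes past 2-fold, all 261 kept their direction and 230 stayed past 2-fold. Some could not differ: Trim13, with 1 probe set, kept 1.69 for LPS at the low floor, by the mean and with plain _at. Alternatives that left a gene unmeasured were not counted. Other probe sets were less uniform. For LPS+8-Br-cAMP against unstimulated, they all went the same way in 6 of the 7 genes that had one measured. The cause of the changes below was not tested, except that thresholds, floors and the choice of probe sets change which genes can pass. The counts below come without the share over all measured genes, so they do not compare the family with other genes. The count of Trim genes higher with LPS than unstimulated, 9, was 5 with plain _at probe sets. Trim25, Trim26 and Trim30a have no such probe set and left the count unmeasured, and Trim34a gave 0.024 by its plain _at probe set. The count of lower ones, 2, was 7 with no scaling, 8 with spike scaling, 9 at the low floor, 0 at the high floor, 5 with the pseudocount, 4 with the mean over probe sets, 14 at 1.5-fold and 1 at 3-fold. For LPS+8-Br-cAMP against LPS, the count of higher genes, 1, was 0 with no scaling, 2 with spike scaling, 6 at the low floor, 0 at the high floor, 2 with the pseudocount, 3 at 1.5-fold and 0 at 3-fold. The count of lower genes, 5, was 12 with no scaling, 2 with spike scaling, 9 at the low floor, 2 at the high floor, 10 at 1.5-fold and 1 at 3-fold. For LPS+8-Br-cAMP against unstimulated, the 7 higher genes were 3 with no scaling, 12 at the low floor and 3 with plain _at probe sets. The 7 lower genes were 16 with no scaling, 16 at the low floor, 1 at the high floor, 11 with the pseudocount, 17 at 1.5-fold and 2 at 3-fold. The family median for LPS against unstimulated was -0.43 to -0.11 across scalings, but 0.027 at the high floor. The median of all measured genes moved from -0.21 in the scaling used to -0.47 with no scaling and -0.51 with spike scaling. Signals near the floor limit what can be said of the dim genes.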
